A study of Mus musculus with 4 samples.

Results

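Dst encodes dystonin, also called BPAG1, a giant protein of the plakin family that links the parts of the cytoskeleton to each other. Its peaks of eIF4A2 binding were chosen by position from the authors' deposited list of peaks above 2-fold, as those with their midpoint on the plus strand of chromosome 1 between 33960000 and 34370000 (mm9), a span of 410 kb given for Dst. This placed 107 of the 47777 listed peaks in Dst. The list holds intervals without gene names, and no mm9 annotation was at hand, so the name Dst rests on the span alone. The annotation of GRCm38, a later build, also puts Dst on the plus strand, with a gene length of 400.4 kb. Inside the span, the minus strand held 0 peaks. The nearest listed plus-strand peaks outside it lay 181 kb before the span, at 33778453 to 33778511 (log2 fold 1.36), and 127 kb after it, at 34496886 to 34496904 (log2 fold 3.41).

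The peaks came from eCLIP of eIF4A2 in J1 cells, a mouse embryonic stem cell line of strain 129S4/SvJae, kept free of feeder cells on gelatin with fetal bovine serum and leukemia inhibitory factor. The 4 libraries were 2 IP libraries, recovered with an antibody against eIF4A2, and 2 input libraries, and all cells had received ultraviolet light of 254 nm at 400 mJ/cm2 before collection. Every peak has a single log2 fold, read here as IP over input and deposited by the authors in 1 list for the 4 libraries, and how the replicates were combined is not stated. Only peaks above a log2 fold of 1 (2-fold) were listed. Counts, p-values and values per library were not in the list, so the depth and the error of each fold are unknown. Membership and the folds come from the same contrast, so the values below describe the list and no test was made of them.

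eIF4A2 is an RNA helicase of the DEAD-box family and a close relative of eIF4A1, the helicase that unwinds the start of messenger RNAs for translation. It is also known as a partner of the CCR4-NOT complex, which shortens poly(A) tails. Dystonin joins actin filaments, microtubules and intermediate filaments, and its gene uses several starts and alternative splicing to make neuronal, muscle and epithelial forms. The epithelial form anchors keratin filaments at hemidesmosomes, and mice that lack dystonin develop dystonia musculorum with loss of sensory neurons.

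The RefSeq windows used here include 2 before starts of Dst in GRCm38.p6, with the starts 149 kb apart. The 250 bases before each start are shown because the question here is where along such a gene the peaks begin. Upstream and downstream name only the order of these 2 windows. Whether Dst has other starts before, between or after them was not analysed, so the upstream window may lie inside the gene. Capitals mark each CG.

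Dst upstream window, chr1:34011345-34011594 (+): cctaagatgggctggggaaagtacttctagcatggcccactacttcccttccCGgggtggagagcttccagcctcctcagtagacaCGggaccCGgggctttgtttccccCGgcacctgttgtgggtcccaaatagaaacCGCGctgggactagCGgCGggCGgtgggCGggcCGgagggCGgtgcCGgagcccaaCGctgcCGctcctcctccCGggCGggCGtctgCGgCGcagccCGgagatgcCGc

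Dst downstream window, chr1:34160010-34160259 (+): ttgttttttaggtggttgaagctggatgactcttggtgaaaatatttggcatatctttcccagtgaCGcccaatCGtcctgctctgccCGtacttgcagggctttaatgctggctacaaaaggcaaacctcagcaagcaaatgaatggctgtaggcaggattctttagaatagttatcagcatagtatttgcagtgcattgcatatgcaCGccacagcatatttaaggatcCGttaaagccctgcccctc

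The upstream window held 22 CG pairs and 68.8% G and C. As many CG pairs or more were found in 14.8% of the 32851 RefSeq windows of the same length, whose median was 6. The downstream window held 5 CG pairs and 45.2% G and C, and 55.6% of the windows held as many or more. A match to TATAAA on either strand was in neither window, against 12.4% of all windows. These positions are in GRCm38.p6 and were not set against those of the peaks, which are in mm9.

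The peaks in Dst began thinly and gathered in the downstream part of the gene. The first peak covered 33971599 to 33971621, 11.6 kb into the span, and had a log2 fold of 1.24 (2.36-fold). No other peak followed for 91.2 kb. A small group of 5 peaks then lay at 34062774 to 34068577, 102.8 to 108.6 kb into the span. After it, the widest gap in Dst ran for 102 kb up to the peak that covered 34170834 to 34170860 (log2 fold 1.3). The remaining 101 peaks all lay from that point on, over 186 kb. Only 6 of the 107 peaks were thus found in the first 210.8 kb of the span.

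**Figure D1:**
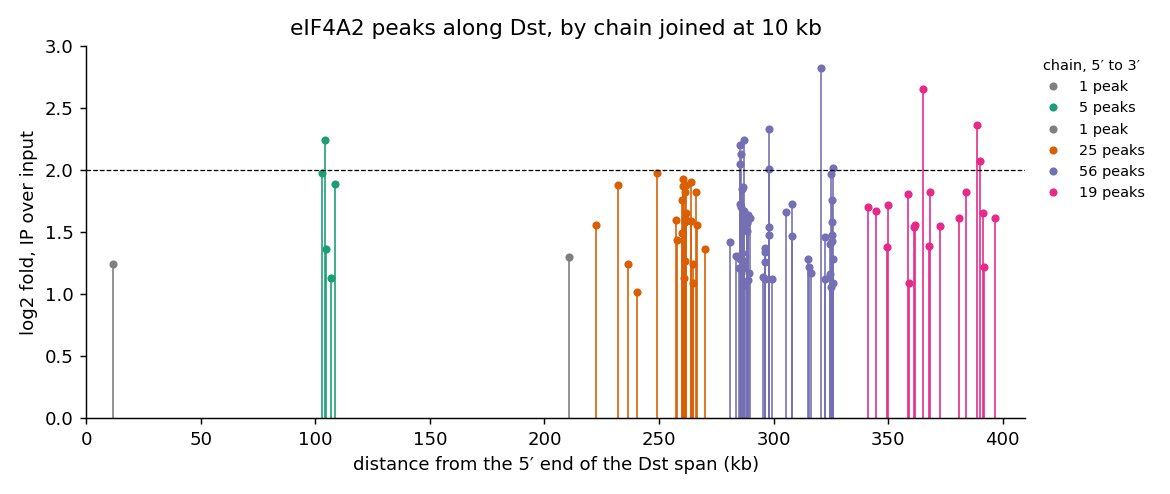
Each line and point is 1 of the 107 peaks in Dst, with its log2 fold of IP over input on the vertical axis and its distance from the 5′ end of the span in kb on the horizontal axis; colours mark chains of peaks joined at gaps of up to 10 kb, and the dashed line is a log2 fold of 2. The first 6 peaks stand alone or as a group of 5, and the chains of 25, 56 and 19 peaks follow.

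The 5 peaks of the early group were spread in fold, with log2 values of 1.13 to 2.24. From 5′ to 3′, the peak at 34062774 to 34062786 had a log2 fold of 1.98 and that at 34064289 to 34064315 had 2.24 (4.72-fold). The peak at 34064550 to 34064572 followed with 1.36, that at 34066573 to 34066588 with 1.13, and that at 34068576 to 34068577, only 2 bases wide, with 1.89. Neighbours in this group were 234 to 2000 bases apart, and the median log2 fold of the group was 1.89.

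With the span cut into 5 parts of 82 kb each, the number of peaks was 1, 5, 5, 77 and 19 from 5′ to 3′. The 4th part therefore held 72% of the peaks, and their summed width there was 2971 of the 3744 bases covered in all of Dst. Its peaks were also wider, with a median of 38 bases against 24 bases in the last part and 16 bases in the 2nd. The median log2 fold did not follow the number of peaks. From 5′ to 3′ it was 1.24 (a single peak), 1.89, 1.3, 1.54 and 1.65. In bins of 10 kb, 22 of the 41 bins of the span held no peak, and the fullest, which began 280 kb into the span, held 26.

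**Figure D2:**
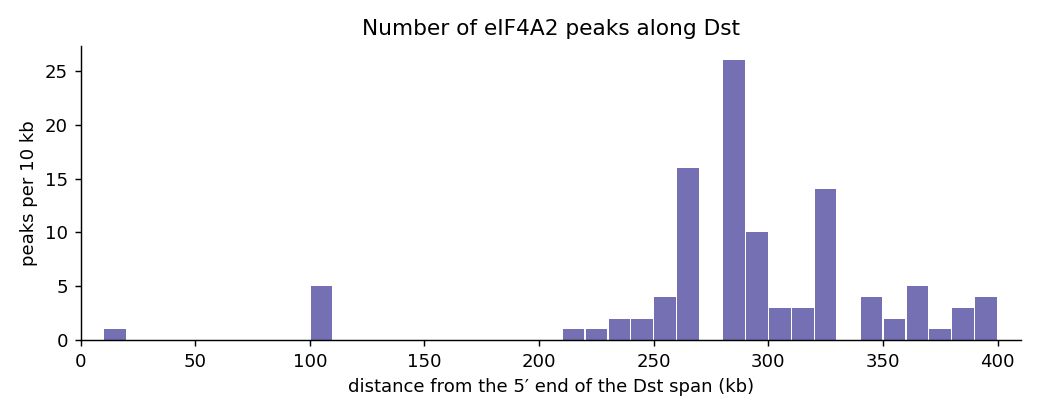
Bars give the number of peaks with their midpoint in each bin of 10 kb, along the distance from the 5′ end of the Dst span in kb. The tallest bar holds 26 peaks and begins at 280 kb, and 22 of the 41 bins are empty.

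Joined across gaps of up to 10000 bases, the peaks of Dst formed 6 chains. The chain of 25 peaks covered 34182256 to 34229917 (47.7 kb), with a median log2 fold of 1.59 and a range of 1.02 to 1.98. None of its 25 peaks reached a log2 fold of 2 (4-fold), against 28.3% of all listed peaks. A count of 0 allows a share of up to 12% if neighbouring peaks are treated as independent, which is no test of a difference from the list. Of the 86 other chains of at least 25 peaks, joined in the same way, 2 also had none. The Dst chain of 56 peaks covered 34240923 to 34286022 (45.1 kb), with a median of 1.48, a range of 1.06 to 2.82 and 8 peaks at 2 or more. The chain of 19 peaks covered 34301190 to 34356595 (55.4 kb), with a median of 1.65, a range of 1.09 to 2.65 and 3 peaks at 2 or more. Between the chains of 56 and 19 peaks lay a gap of 15.2 kb, which began after 34285980 to 34286022 (log2 fold 1.09) and ended at 34301190 to 34301233 (log2 fold 1.7).

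The chains differed more in spacing than in fold. The median gap between neighbours was 116 bases in the chain of 56 peaks, and 44 of its 55 gaps (80%) were of 1000 bases or less. In the chain of 25 peaks the median gap was 508 bases. In the most 3′ chain it was 2768 bases, and 27.8% of its gaps were of 1000 bases or less. The 3′ part of Dst thus held peaks at intervals of a few kb, whereas peaks in the chain of 56 were packed.

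Packed peaks came in short stretches. Joined at 1000 bases, Dst held 42 stretches, of which 25 were single peaks. The stretch with the most peaks covered 34244989 to 34249873 (4.88 kb) and held 24 peaks, or 4.91 per kb, which covered 20.9% of it. Only 10 of the 31595 stretches of the whole list, itself included, held as many. Its folds ran from 1.07 to 2.24 on the log2 scale, with a median of 1.6. All 4 of its peaks at 2 or more lay in its 5′ part, at 34245367 to 34245419 (2.05), 34245420 to 34245455 (2.2), 34245699 to 34245736 (2.13) and 34247142 to 34247169 (2.24).

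A pair of stretches held 11 peaks each. The one at 34219854 to 34221944 (2.09 kb) had a median log2 fold of 1.65 and no peak above 1.93. The one at 34284621 to 34286022 (1.4 kb) had a median of 1.43, and its peaks covered 37.3% of it. It held the widest peak of Dst, 92 bases at 34284982 to 34285073 (log2 fold 1.97). A further stretch of 5 peaks lay at 34255582 to 34256368, with a range of 1.12 to 1.37. These 4 stretches of 5 or more peaks held 51 peaks, 47.7% of those in Dst.

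**Figure D3:**
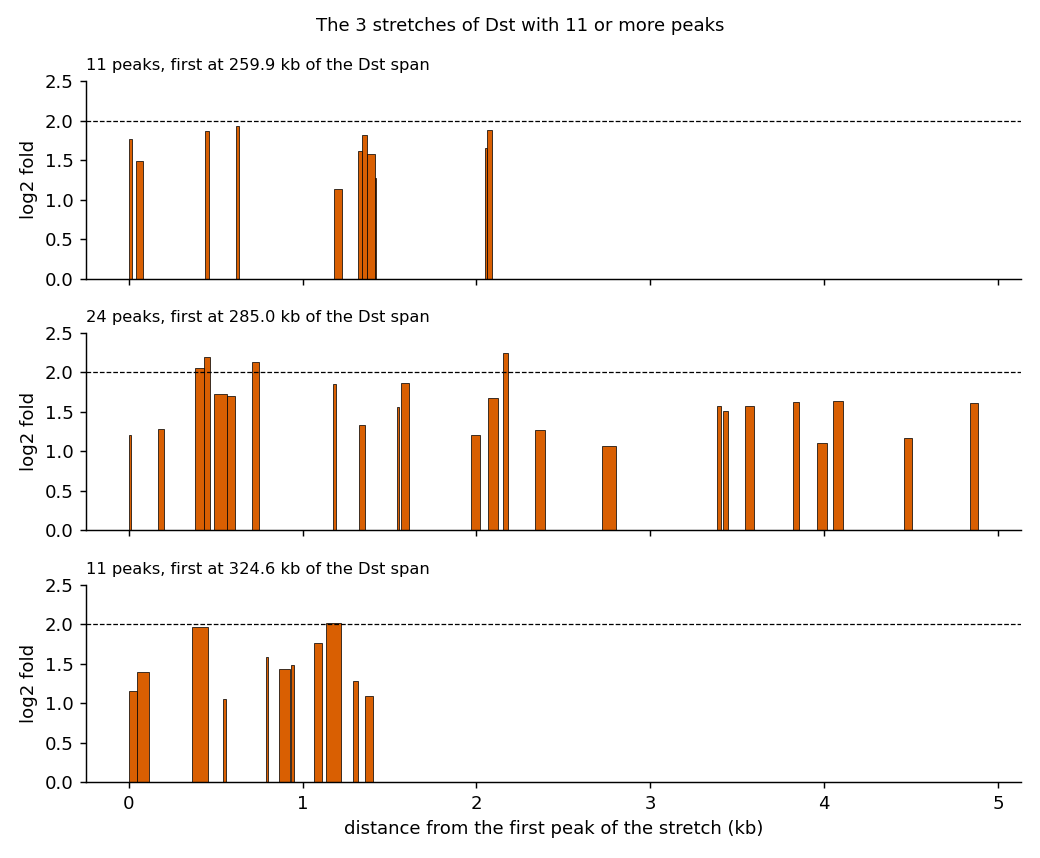
Bars are single peaks of the 3 stretches of Dst with 11 or more peaks, drawn to their width along the distance from the first peak of the stretch in kb, with the log2 fold of IP over input as their height from 0. The dashed line is a log2 fold of 2, which 4 of 24 peaks in the middle stretch, 1 of 11 in the last and 0 of 11 in the first reach.

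The GRCm38 annotation (GENCODE M21) gives a scale for these stretches. Protein-coding transcripts of Dst had 110 exons there after overlapping ones were merged, with a median length of 156 bases, and together they made up 8.59% of the gene. The longest was 5.29 kb, the next were 2.77 and 2.7 kb, and 7 were of 1 kb or longer. Which of the peaks lie in exons, introns or untranslated regions was not analysed here, since the builds differ.

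Folds in Dst were low to moderate. The median log2 fold of its 107 peaks was 1.56 (2.95-fold), with an interquartile range of 1.28 to 1.82, against a median of 1.65 (3.15-fold) and an interquartile range of 1.29 to 2.08 for the list outside Dst. The lower quartiles were close and the upper quartiles were apart. A log2 fold of 2 or more was reached by 12 Dst peaks, or 11.2% (Wilson 95% interval 6.53 to 18.6%), against 28.3% of all listed peaks. At 3 or more (8-fold) there were 0 Dst peaks (Wilson 95% interval 0 to 3.47%), against 4.03% of all listed peaks. On the plus strand of chromosome 1 outside Dst, 27.4% of 1322 peaks reached 2 and 2.42% reached 3. These intervals cover counting error only and treat neighbouring peaks as independent, so they are no test of a difference from the list.

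**Figure D4:**
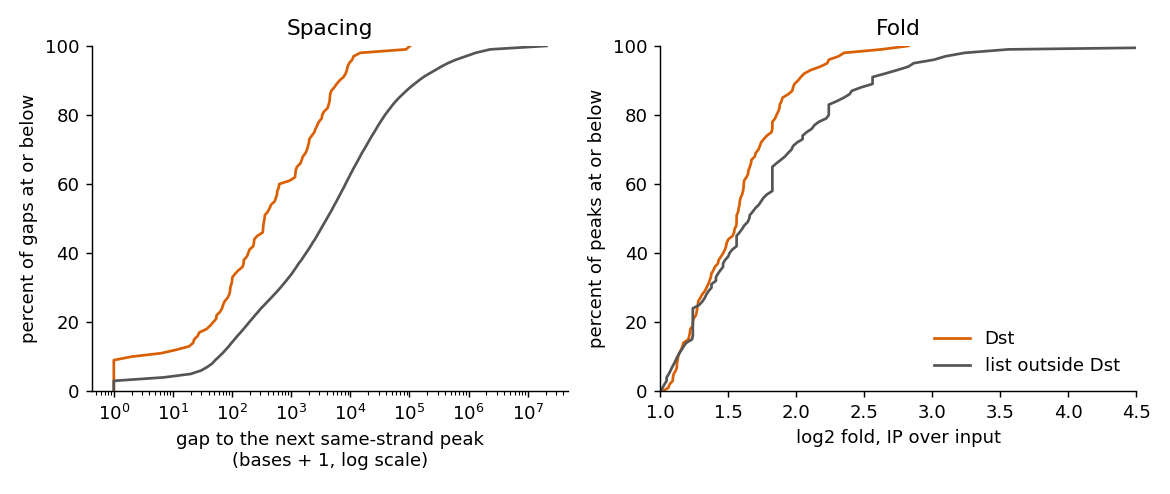
The left panel gives the percent of gaps at or below each length, in bases plus 1 on a log scale, between neighbouring peaks of the same strand, and the right panel the percent of peaks at or below each log2 fold, cut at 4.5, for Dst and for the list outside it. The median gap is 354 bases in Dst and 4013 bases outside it. Gaps of Dst lie inside its span, whereas those outside it include gaps between distant peaks. The upper quartile of the log2 fold is 1.82 in Dst and 2.08 outside it.

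The 2 highest folds in Dst lay on narrow peaks outside the packed stretches. The peak at 34280785 to 34280790, 6 bases wide, had a log2 fold of 2.82 (7.08-fold), and that at 34325230 to 34325242, 13 bases wide, had 2.65 (6.26-fold). Both were single peaks, with gaps of over 1000 bases on each side. Next came 34348731 to 34348761 with 2.36 (5.12-fold) in the most 3′ chain, and 34257976 to 34258031 with 2.33 (5.02-fold). The peak at 2.33 was the strongest of 4 peaks within 270 bases, which covered 62.6% of that stretch. The peak at 34350165 to 34350186 had 2.07. With the early peak at 2.24 and the 4 peaks of the 24-peak stretch, these make up the 10 highest folds in Dst.

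Single peaks, those with no other within 1000 bases, had a median log2 fold of 1.61, and 4 of 25 reached 2. The 51 peaks in stretches of 5 or more had a median of 1.57, and 5 of them reached 2. The median width was 22 bases for the single peaks and 38 bases for those in stretches of 5 or more. Across the 107 peaks, Spearman's rho was -0.05 between width and log2 fold and 0.00 between position and log2 fold, as a description of peaks that share their transcript and libraries.

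The lowest fold lay on a single peak in the chain of 25, at 34200407 to 34200426, with 1.02 on the log2 scale (2.02-fold), just inside the limit of the list. The next were 34285161 to 34285179 with 1.06 and 34247713 to 34247791 with 1.07, within the stretches of 11 and 24 peaks. At the 3′ end, the last peaks were at 34351359 to 34351382 with 1.65, at 34352000 to 34352026 with 1.22 and at 34356583 to 34356595 with 1.61. The final one ended 13.4 kb before the end of the span.

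Gaps between peaks were shorter in Dst than in the list outside it, but the gaps compared are unlike. Those of Dst lie inside its span, whereas those outside it include gaps between distant peaks, of up to 20711508 bases. Peak-rich chains, a closer comparison, are set beside Dst below. The next peak lay within 1000 bases for 65 of 106 gaps in Dst (61.3%), against 33.8% outside it, and within 10000 bases for 95.3% against 62.7%. The median gap was 354 bases in Dst and 4013 bases outside it. Touching neighbours made up 11 of the 106 gaps (10.4%), against 3.83% outside and 6.59% on the plus strand of chromosome 1 outside Dst. They were not counted in the peak-rich chains. Peak widths were alike, with medians of 33 and 32 bases.

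In the 11 touching pairs the folds were close to each other. The median difference was 0.24 on the log2 scale and the largest was 0.34. The pair with the highest fold, at 34257930 to 34257975 and 34257976 to 34258031, had log2 folds of 2.01 and 2.33. The only run of 4 touching peaks covered 34221172 to 34221275, with log2 folds of 1.61, 1.82, 1.58 and 1.27. For the 41 neighbours over 1000 bases apart the median difference was 0.32 and the largest 1.7.

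Set beside other long chains, Dst was dense and had a low share of peaks at a log2 fold of 2 or more. Over the 385 kb from its first to its last peak it held 27.8 peaks per 100 kb. Of 112 other chains of 200 to 800 kb, joined at gaps of up to 50000 bases, 8 were as dense, and their median was 10.2 per 100 kb. That value for Dst spans its gaps of 91.2 and 102 kb, which the joining distance would not allow in the other chains. Joined in the same way, Dst itself split into chains of 1, 5 and 101 peaks. The chain of 101 peaks, 186 kb long, held 54.4 per 100 kb, and 1 of the 112 was as dense. This Dst chain is shorter than the 200 kb minimum of the 112, and other chains below that length were not counted. Among the 43 other chains of at least 50 peaks, the share of peaks at a log2 fold of 2 or more ran from 7.78 to 72.6% with a median of 29.4%. That share was 10.9% (11 of 101) in the Dst chain, and 1 of the 43 was at or below it. The median log2 fold of the Dst chain was 1.56, and 10 of the 43 had a median at or below that.

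The 3 chains nearest to the 27.8 per 100 kb of the whole of Dst were all on plus strands and had higher median folds. On chromosome 12, 111685669 to 111905077 held 59 peaks, or 26.9 per 100 kb, with a median log2 fold of 1.66, and 15 of them reached 2. On chromosome 5, 115688100 to 116096003 held 109 peaks over 408 kb, or 26.7 per 100 kb, with a median of 1.82, and 34 reached 2. On chromosome 4, 125167978 to 125391005 held 66 peaks, or 29.6 per 100 kb, with a median of 1.9, and 27 reached 2. Gaps of 1000 bases or less made up 61.3% of all gaps in Dst, against 43.1%, 51.9% and 41.5% in these chains. Short gaps were common in other peak-rich chains too. They made up 64% of gaps in the Dst chain of 101 peaks, against a median of 56.1% over the 43 other chains of at least 50 peaks. Joined at 10000 bases, they made up 62.5% and 80% in the Dst chains of 25 and 56 peaks, against a median of 67.2% over the 86 other chains of at least 25 peaks. The chain with the most peaks of the list at a joining distance of 10000 bases, 123012062 to 123116331 on chromosome 8 (plus strand), held 175 peaks. The 56-peak chain of Dst held 124 peaks per 100 kb against 168 in that chain, and its median log2 fold was 1.48 against 2.2.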

How the data were processed

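eCLIP libraries (2 IP and 2 input) were processed by the authors with cutadapt 1.18, STAR 2.6.1b and the build mm9, per the submitters' processing notes. How peaks were called, filtered and combined over replicates is not stated by the labels. The deposited list gives 1 log2 value per peak. Reading it as IP over input is an assumption, since no header states it and the values alone do not show the direction. Starts were changed to count from 1. Peaks were placed by midpoint and strand, gaps were taken to the next peak on the same strand, and chains were joined at 200, 1000, 10000 or 50000 bases. No test was made. The members, the lists and the span were chosen with earlier results of these data known. Peaks named singly were the 5 most 5′, the 3 most 3′, the 10 highest and 3 lowest folds, the widest, and those beside the 3 widest gaps and the narrowest gap. The other peaks, stretches and touching pairs named were picked with their values in view. The like chains were the 3 of 200 to 800 kb nearest in peaks per 100 kb. Placement, gaps, chains and whole-number ratios were tested on simulated data. Wilson intervals are at 95%, and a count of 0 was read as up to 3 counts. Python 3.11.15, numpy 2.4.6, pandas 2.3.3, scipy 1.17.1 and matplotlib 3.10.9 were used.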

Additional observations from a re-analysis of the deposited data

How the results depend on the processing

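Of 22 alternative values, 16 stayed within the limits set. For a count, the limit was 1.5 times. For the share of gaps within 10000 bases, it was the Wilson 95% interval of 89.4 to 98%. For the median fold, it was the interval of 1.46 to 1.61 from the binomial order of the 107 folds. These intervals treat neighbouring peaks as independent. With a lower limit of 2 on the log2 fold, 12 of the 107 Dst peaks remained, with a median log2 fold of 2.22, and 54.5% of their gaps were within 10000 bases. The fewer peaks of that setting follow from its construction. With a limit of 3, the number was 0. A joining distance of 1000 bases gave 61.3% and one of 50000 bases 98.1%, in place of 95.3%. A minimum width of 20 bases left 82 peaks and merging peaks within 50 bases left 85, with medians of 1.52 and 1.57. A merged peak took the highest log2 fold of its parts, so merging favours higher folds by construction. Placing peaks by any overlap, or widening the span by 50000 bases on each side, gave the same 107 peaks. Neither setting could change them, since the nearest plus-strand peaks outside the span lay 181 and 127 kb away. The values of these settings among the 16 are therefore no check of the results. No paired analysis was possible because the list has no values per library, and no replicate could be left out for the same reason. The depth of the libraries is unknown.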

Other observations

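A constant of 0.239745315 on the log2 scale was chosen so that the commonest value of the list became 2 to 1. After its subtraction, all 107 Dst folds were ratios of whole numbers with denominators of up to 200 (relative tolerance 1e-07). With the constant at 0.249745315, 0 of the 107 were. In lowest terms, the denominator was 10 or less for 34 Dst peaks (31.8%), against 75.6% of all listed peaks, and its median was 24 in Dst and 4 in the list. All 6 peaks in the first 210.8 kb of the span had a denominator of 10 or less, with a median of 4.5. In the 4 stretches of 5 or more peaks, 10 of 51 did, with a median of 26. The highest fold in Dst, on the peak at 34280785 to 34280790, was at 6 to 1, and the next, at 34325230 to 34325242, was at 53 to 10. What the whole numbers count is not given in the list. The constant is known only up to a ratio of whole numbers, so the denominators depend on the value chosen for it.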
